A study of Mus musculus with 18 samples.

Results

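Long intergenic non-coding RNAs (lincRNAs) are transcripts annotated between protein-coding genes, with no annotated coding region of their own. The lincRNAs described here were all autosomal genes of Gencode M21 gene type lincRNA that reached at least 3 CPM (read counts scaled to the library total) in at least 3 of 18 libraries, without Gas5 and without genes whose symbol starts with Snhg. These were 187 lincRNAs among 12705 genes that passed the same filter, out of 4794 lincRNA genes in the table. The other 7 lincRNA genes that passed were 5 excluded by symbol and 2 that were not autosomal.

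The libraries came from V6.5 mouse embryonic stem cells (ESCs), grown in serum with LIF and 2i, that were wild-type or carried a CRISPR knockout of Ddx6 (Ddx6 KO), which encodes an RNA helicase of translational repression and mRNA decay. Lysates of cells treated with 100 µg/ml cycloheximide for 2 min were separated on sucrose gradients of 10% to 50%. Each gradient gave a monosome pool, a low polysome pool (from 2 up to 4 ribosomes) and a high polysome pool (at least 4), which were sequenced from the 3′ end of the RNA. There were 3 gradients per genotype, and Ddx6 KO gradient 1 was clone 1 whereas gradients 2 and 3 were clone 2, so each comparison of genotypes rests on 2 clones.

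An RNA that carries many ribosomes travels far into a sucrose gradient, whereas RNA without ribosomes stays near the top. Some lincRNAs act in the nucleus, such as Malat1 in speckles and Neat1 in paraspeckles. Others work in the cytoplasm, serve as hosts of miRNAs or snoRNAs, or contain short open reading frames from which small proteins can be made. Lncenc1, Eprn and the Platr (pluripotency-associated transcript) lincRNAs are known from ESCs. The pools are defined by sedimentation, so the presence of a lincRNA in a polysome pool does not by itself show that it was translated.

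Libraries held between 2543617 and 11474550 gene counts. Ddx6 was at 143 to 212 CPM in wild-type libraries, 55.3 to 82.7 CPM in clone 1 and 9.68 to 26.7 CPM in clone 2. The 6 ESC markers summed to 1081 to 2802 CPM in wild-type and 947 to 2386 CPM in Ddx6 KO libraries. The summed markers of primitive endoderm were at 4.15 to 10.5 CPM and 7.03 to 24.7 CPM, those of mesoderm at 3.27 to 6.95 CPM and 2.35 to 5.41 CPM, and those of fibroblasts at 3.92 to 10.5 CPM and 5.55 to 11.1 CPM. The 2 primed epiblast markers summed to 22.3 to 62.3 CPM in wild-type and 4.18 to 10.8 CPM in Ddx6 KO. The defining genes T, Col1a2 and Fgf5 were under 1 CPM in all libraries, and the part of the marker differences in the results was not tested. Each library was scaled to its own total, so a change is one in the share of a pool, and fewer cells of a type cannot be told apart from less RNA per cell.

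The 187 lincRNAs lay on 19 chromosomes. Their longest annotated transcripts had a median of 1662 nt (269 to 20771 nt) and their exon number a median of 3. The longest frame from ATG to stop had a median of 82 codons, and 53 lincRNAs had a frame of at least 100 codons. RefSeq matched 144 of the 187 and gave 13 of them as protein-coding. On the same strand, 26 lay within 10 kb downstream of a protein-coding gene and 28 overlapped another gene, and for these, reads from the neighbour may have been counted for the lincRNA. Mean levels ran from 1.19 to 1419 CPM with a median of 4.51 CPM, so that 64 lincRNAs averaged under 3 CPM.

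Short reading frames are shown here for lincRNAs that were not lower in the wild-type low polysome than in the monosome. That of Malat1, which was lower in both polysome pools, is shown beside them. Start and stop codons are in capitals and the strand is that of the transcript. Each is the longest frame among the Gencode M21 transcripts, except that the longest frame of 1810058I24Rik (75 codons) ran into a retained intron and the spliced frame from the same ATG is given. RefSeq lists 1810058I24Rik, with the synonym Stmp1, as protein-coding. On GRCm38 the frame of 1810058I24Rik (47 codons) lay at chr6:35252768-35261233 (+) over 3 exons and that of Gm31659 (59 codons) at chr8:95808653-95812496 (-) over 2 exons. The others each lay in 1 exon, Gm26722 (51 codons) at chr4:129309337-129309492 (+), 4933404O12Rik (69 codons) at chr5:136936880-136937089 (+), Gm4349 (87 codons) at chr3:95428563-95428826 (+), AU020206 (83 codons) at chr7:75771306-75771557 (-) and Malat1 (64 codons) at chr19:5797807-5798001 (-).
1810058I24Rik: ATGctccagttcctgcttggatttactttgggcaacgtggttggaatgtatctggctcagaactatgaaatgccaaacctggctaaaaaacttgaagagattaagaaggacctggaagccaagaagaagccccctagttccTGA
Gm26722: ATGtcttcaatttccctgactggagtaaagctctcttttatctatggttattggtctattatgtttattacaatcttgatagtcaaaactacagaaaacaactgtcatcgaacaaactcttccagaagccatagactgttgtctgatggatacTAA
4933404O12Rik: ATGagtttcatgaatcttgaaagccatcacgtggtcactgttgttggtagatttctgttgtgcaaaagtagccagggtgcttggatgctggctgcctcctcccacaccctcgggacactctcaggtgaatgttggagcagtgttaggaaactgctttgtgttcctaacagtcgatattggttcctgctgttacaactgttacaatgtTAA
Gm4349: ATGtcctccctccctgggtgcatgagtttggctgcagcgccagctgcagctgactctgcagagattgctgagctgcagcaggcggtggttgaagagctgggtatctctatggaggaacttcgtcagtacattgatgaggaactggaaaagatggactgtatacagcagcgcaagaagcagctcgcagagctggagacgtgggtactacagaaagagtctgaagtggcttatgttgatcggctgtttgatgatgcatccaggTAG
Gm31659: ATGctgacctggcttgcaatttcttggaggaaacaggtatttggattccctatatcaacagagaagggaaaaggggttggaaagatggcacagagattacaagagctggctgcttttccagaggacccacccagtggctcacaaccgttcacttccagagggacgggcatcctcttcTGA
AU020206: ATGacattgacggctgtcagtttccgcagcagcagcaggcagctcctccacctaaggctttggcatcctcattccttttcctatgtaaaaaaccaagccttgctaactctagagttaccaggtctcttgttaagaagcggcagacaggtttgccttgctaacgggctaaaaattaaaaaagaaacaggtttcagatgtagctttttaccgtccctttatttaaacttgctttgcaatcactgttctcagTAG
Malat1: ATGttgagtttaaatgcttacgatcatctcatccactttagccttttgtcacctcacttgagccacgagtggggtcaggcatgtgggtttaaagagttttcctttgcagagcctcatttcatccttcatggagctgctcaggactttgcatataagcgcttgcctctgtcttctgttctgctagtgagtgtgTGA
The frame of Malat1 was thus longer than 3 of the other 6.

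An annotated miRNA lay within 14 of the lincRNAs. They held 36 miRNA genes, 31 of which had mature sequences in RefSeq (GRCm38.p6). Shown are those of Mir17hg (chromosome 14, plus strand), of 6720427I07Rik (chromosome 13, minus strand) and of H19 (chromosome 7, minus strand), whose levels are given further on, with the seed (bases 2 to 8) in capitals. Within Mir17hg, miR-17 and miR-20a share a seed, as do miR-19a and miR-19b, and the let-7 miRNAs of 6720427I07Rik share another.
mmu-miR-17-5p: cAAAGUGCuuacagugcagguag
mmu-miR-20a-5p: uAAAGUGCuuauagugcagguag
mmu-miR-18a-5p: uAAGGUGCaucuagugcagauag
mmu-miR-19a-3p: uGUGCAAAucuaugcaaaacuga
mmu-miR-19b-3p: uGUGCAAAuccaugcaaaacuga
mmu-miR-92a-3p: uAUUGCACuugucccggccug
mmu-let-7a-5p: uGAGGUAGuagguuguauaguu
mmu-let-7d-5p: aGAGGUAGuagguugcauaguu
mmu-let-7f-5p: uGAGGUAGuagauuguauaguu
mmu-miR-675-5p: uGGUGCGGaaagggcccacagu

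In wild-type ESCs, the share of counts held by lincRNAs declined with each step into the polysomes. Together they held 1.002% to 1.11% of monosome counts, 0.455% to 0.526% of low polysome counts and 0.116% to 0.137% of high polysome counts. Without Malat1 and Meg3, the shares were 0.445% to 0.455%, 0.328% to 0.337% and 0.0952% to 0.106%. The median lincRNA was at 8.83 to 9.32 CPM across monosome libraries, 5.71 to 6.25 CPM across low polysome libraries and 1.80 to 2.10 CPM across high polysome libraries.

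Comparing high polysome with monosome, 167 of the 187 lincRNAs were lower and 0 were higher (adjusted p under 0.05 in limma). Among all 12705 genes, 32.2% were lower and 28.9% were higher. No lincRNA was higher at an unadjusted p under 0.05 either, nor by edgeR or DESeq2, which called 169 and 168 lower. The median log2 change was -2.36 for lincRNAs and -0.02 for all genes. The filter bears on these counts, as 98 of the 187 stayed under 3 CPM in each of the 6 high polysome libraries and so passed through the other pools. Of the 51 lincRNAs with a mean of at least 10 CPM, a limit set after seeing the data, 49 were lower and 0 higher.

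**Figure D1:**
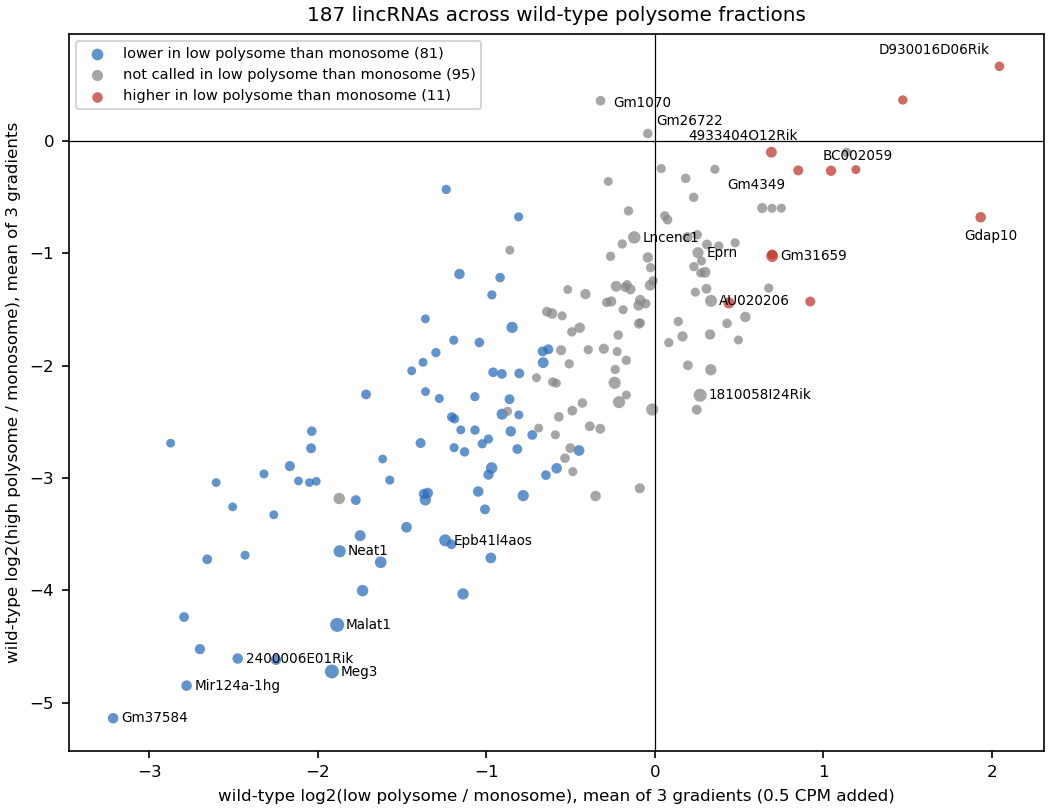
Each point is one of 187 lincRNAs, plotted by its wild-type log2 ratio of low polysome to monosome (x axis) and of high polysome to monosome (y axis), both means of 3 gradients with 0.5 CPM added, with larger points at higher mean CPM. Colours give the call between low polysome and monosome (81 lower, 11 higher, 95 not called), and nearly all points lie below 0 on the y axis whereas they fall on both sides of 0 on the x axis.

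In the wild-type low polysome, 81 lincRNAs were lower and 11 higher than in the monosome, beside 22.8% and 20.4% of all genes. The median log2 change was -0.58 (all genes, -0.01). The highest mean level of a lincRNA was in the monosome 140 times, the low polysome 45 times and the high polysome 2 times. Of those 81, 79 were also lower than the monosome in the high polysome, as were 5 of those 11. Between high and low polysome, 158 were lower and 0 higher, beside 32.6% and 29.5% of all genes. In that comparison 1 lincRNA was higher at an unadjusted p under 0.05, and 1 each by edgeR and DESeq2.

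The nuclear lincRNAs held a larger share of the counts in the monosome pool than in either polysome pool. Malat1, the most abundant, had wild-type monosome levels of 2864, 3185 and 3505 CPM, low polysome levels of 630.2, 935 and 1074 CPM and high polysome levels of 117, 184 and 190.4 CPM. The 3 pools did not overlap, and the log2 change from monosome to high polysome was -4.31 ± 0.22 (SE, n = 3 gradients, adjusted p = 1.9e-12 in limma). Meg3, an imprinted lincRNA expressed from the maternal allele, went from 2830.2, 2362 and 3085 CPM (monosome) to 99.1, 96.3 and 116 CPM (high polysome), again without overlap (log2 -4.73 ± 0.18). Neat1, the scaffold of paraspeckles, went from 221, 235 and 235 CPM to 14.9, 21.3 and 17.99 CPM between the same pools (log2 -3.68 ± 0.14). It lies within 10 kb downstream of a protein-coding gene on the same strand. Mirg, which lies in the same imprinted region as Meg3 and holds 14 annotated miRNAs, went from 47.4, 58.1 and 53.5 CPM to 5.904, 3.801 and 7.25 CPM. All 4 nuclear lincRNAs were lower in both polysome pools than in the monosome. Of all 187 lincRNAs, 81 were lower in the low and 167 in the high polysome, beside 22.8% and 32.2% of all genes.

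The lincRNAs listed as cytoplasmic, whose place in the cell was not measured here, were also lower in the high polysome, 4 of 4, with log2 changes from -3.78 to -2.66. Of all 187 lincRNAs 167 were lower there, beside 32.2% of all genes. This list held 1700020I14Rik (Cyrano in RefSeq, known for directing decay of a miRNA), 2900097C17Rik (Norad, which binds Pumilio proteins), Epb41l4aos and H19. Cyrano had 135, 151 and 148 CPM in wild-type monosome libraries and 7.32, 10.3 and 14.4 CPM in high polysome libraries. Epb41l4aos, which also hosts a snoRNA, had 275, 274 and 267 CPM and 28.1, 16.3 and 25.5 CPM. Norad was sparse, at 7.96, 3.48 and 1.24 CPM in the monosome, and its high polysome call was lost without wild-type gradient 2. The call of H19 was lost without any 1 of the wild-type gradients.

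All 14 miRNA hosts were lower in the high polysome, with a median log2 change of -3.42. Of all 187 lincRNAs 167 were lower there (median -2.36), beside 32.2% of all genes. Mir17hg, host of the miR-17 to miR-92 cluster, had 32.3, 25.1 and 34.4 CPM in the monosome and 2.44, 3.201 and 3.48 CPM in the high polysome (log2 -3.29 ± 0.25). The let-7 host 6720427I07Rik had 86.8, 74.8 and 75.2 CPM and 3.72, 4.502 and 4.897 CPM (log2 -4.14 ± 0.21), and overlaps Gm37238 on the same strand. Both hosts were chosen for their miRNAs after their values were seen. Among lincRNAs with a mean of at least 10 CPM, the 5 lowest ratios were those of Gm37584 (log2 -5.73 ± 0.33), Mir124a-1hg (-5.50 ± 0.55), AI480526 (-5.15 ± 0.34), 2400006E01Rik (-4.97 ± 0.29) and Meg3. Mir124a-1hg, a host of miR-124, had 36.6, 33.7 and 28.6 CPM in the monosome and at most 1.56 CPM in any high polysome library. Both snoRNA hosts, Epb41l4aos and 2700038G22Rik, were lower in each polysome pool. Of all 187 lincRNAs, 81 were lower in the low and 167 in the high polysome, beside 22.8% and 32.2% of all genes.

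Of the 20 lincRNAs not called between high polysome and monosome, 18 had a mean under 10 CPM and 9 had a wild-type high polysome mean of at least 3 CPM. Their median SE was 0.40 on the log2 scale, against 0.37 for the 167 that were lower. Gm26722, which starts 522 nt downstream of Sync, had levels that overlapped between the pools. It had 5.58, 4.41 and 3.94 CPM (monosome), 5.15, 4.65 and 3.68 CPM (low polysome) and 6.16, 4.302 and 4.24 CPM (high polysome). The log2 change from monosome to high polysome was 0.06 ± 0.31. Gm1070, protein-coding in RefSeq and 8446 nt downstream of Krcc1, had 4.38, 2.09 and 3.11 CPM in the monosome and 3.47, 4.402 and 4.43 CPM in the high polysome, which overlapped (log2 0.45 ± 0.39, adjusted p = 0.33). D930016D06Rik, listed by RefSeq under the protein-coding gene Thoc2l, peaked in the low polysome at 8.09, 11.7 and 11.5 CPM, with 1.59, 1.63 and 3.52 CPM in the monosome and 2.18, 3.801 and 5.65 CPM in the high polysome.

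The most abundant of the 20 was 4933404O12Rik, which lies 3742 nt downstream of Ift22. It had 11.9, 22.1 and 24.9 CPM in the monosome and 16.8, 18.8 and 16.8 CPM in the high polysome, so the pools overlapped (log2 -0.19 ± 0.21, adjusted p = 0.43). BC002059, whose longest frame had 410 codons, had 9.16, 12.5 and 13.3 CPM and 7.57, 9.403 and 11.96 CPM. Gm4349, a transcribed pseudogene in RefSeq, had 7.96, 8.83 and 11.4 CPM and 8.47, 7.403 and 7.16 CPM. These overlapped as well. Gm7762 (log2 -0.63 ± 0.29), protein-coding in RefSeq, A330069E16Rik (-0.58 ± 0.47) and 2410017I17Rik (-0.53 ± 0.38, singled out after its values were seen) complete the 9 with a high polysome mean of at least 3 CPM.

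By annotation, the 20 had a median longest frame of 103.5 codons, and 10 of them had at least 100 codons. For the 167 that were lower the median was 82 codons, and 43 had at least 100. The median longest transcript was 2257.5 nt for the 20 and 1598 nt for the 167. The part of transcript length in the frame lengths was not tested. RefSeq gave 4 of the 20 and 9 of the 167 as protein-coding, while none of the 20 but 14 of the 167 held a miRNA and 0 and 23 had a single exon. Across all 187, which share libraries, Spearman's rho between frame length and the wild-type log2 ratio of high polysome to monosome was 0.16, for exon number 0.13, for transcript length 0.05 and for mean CPM -0.17.

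For some abundant lincRNAs the high polysome was lower than the monosome while the low polysome was not called. Lncenc1 had 274, 289.9 and 265 CPM in wild-type monosome libraries, 257, 266 and 238 CPM in low polysome libraries and 153, 157 and 146 CPM in high polysome libraries. The change was -0.12 ± 0.10 (adjusted p = 0.35) to the low polysome and -0.86 ± 0.10 (adjusted p = 3.5e-07) to the high polysome on the log2 scale. 1810058I24Rik, which lies 5058 nt downstream of Nup205, had 387, 398 and 356 CPM, 542, 433 and 410.1 CPM and 81.2, 71.6 and 83.9 CPM in the same order. Each of its low polysome libraries was above each monosome library, but the test did not pass (log2 0.27 ± 0.15, adjusted p = 0.17), and the high polysome was lower (-2.27 ± 0.16). Tmem250-ps, protein-coding in RefSeq, changed by -0.02 ± 0.20 to the low polysome and by -2.42 ± 0.21 to the high polysome.

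Of the 11 lincRNAs that were higher in the low polysome, Gm31659 was the most abundant. It had 81.6, 92 and 93.9 CPM (monosome), 156, 138 and 141 CPM (low polysome) and 42.9, 41.2 and 46.4 CPM (high polysome), with no overlap (low polysome against monosome, log2 0.69 ± 0.12, adjusted p = 8.6e-05). D930016D06Rik (2.14 ± 0.41), BC002059 (1.01 ± 0.28), Gm4349 (0.83 ± 0.20), Gm17322 (1.23 ± 0.35) and 4933404O12Rik (0.62 ± 0.20) also rose. The calls of Gm17322, which overlaps Cyp11a1 on the same strand, and of 4933404O12Rik were each lost without wild-type gradient 1 or 2. Gdap10, singled out after its values were seen, had 9.96, 11.4 and 10.2 CPM in the monosome and 36.02, 40.4 and 48.96 CPM in the low polysome, and overlaps Nampt on the same strand. In all, 4 of the 11 overlapped another gene and 3 lay within 10 kb downstream of a coding gene.

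In Ddx6 KO cells, 163 lincRNAs were lower in high polysome than monosome and 1 was higher, beside 33.6% and 35.0% of all genes, and the median log2 change was -2.40. The lincRNA that was higher was Gm1070, with 5.61, 2.66 and 5.77 CPM in Ddx6 KO monosome libraries and 9.69, 6.52 and 9.002 CPM in high polysome libraries (log2 0.91 ± 0.27, adjusted p = 0.0059). By gradient, the median log2 ratio of high polysome to monosome over the lincRNAs was -2.03, -1.89 and -2.11 in wild-type and -1.99, -1.90 and -1.83 in Ddx6 KO. The median ratio of low polysome to monosome was -0.47, -0.44 and -0.64 in wild-type and -0.84, -0.77 and -0.80 in Ddx6 KO, which did not overlap, while the medians of all genes were between -0.02 and 0.03. This difference between genotypes was not tested, and ratios by gradient rest on an assumed pairing of pools. The Ddx6 KO median also moved with the CPM added, as given further on. The highest mean level was in the low polysome for 22 lincRNAs in Ddx6 KO.

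Whether the ratio of high polysome to monosome differed between genotypes was tested as an interaction for each lincRNA. The ratio was higher in Ddx6 KO for 4 lincRNAs and lower for 4 of 187, beside 10.7% and 7.09% of all genes. The median SE of this difference was 0.56 for lincRNAs and 0.29 for all genes, so the 2 sets were not tested at like precision. Of the 51 lincRNAs with a mean of at least 10 CPM (median SE 0.31), 3 were higher and 2 lower. AU020206 had 141, 128 and 188 CPM in wild-type monosome libraries and 44.5, 67.1 and 57.8 CPM in high polysome libraries. In Ddx6 KO the same pools had 24.1, 29.4 and 25.7 CPM and 20.6, 23.6 and 30.3 CPM, which overlapped. Its log2 ratio was higher in Ddx6 KO by 1.33 ± 0.27 (adjusted p = 0.0028 in limma). Cyrano, which lies 7270 nt downstream of Chp1, had 89.8, 87.3 and 78.7 CPM and 13.6, 10.9 and 13.8 CPM in these Ddx6 KO pools, and its ratio was higher by 1.04 ± 0.28 (adjusted p = 0.015). The ratio of 2400006E01Rik was higher by 1.60 ± 0.41 and that of Gm17250 by 2.39 ± 0.76, on high polysome levels of at most 1.94 and 0.779 CPM, and that of 2400006E01Rik changed sign when libraries were thinned to equal depth (-0.84, adjusted p = 0.54).

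Gm31659 was one of the 4 whose ratio was lower in Ddx6 KO. It had 57.2, 62.2 and 62.6 CPM in Ddx6 KO monosome libraries, 59.3, 59.6 and 48.4 CPM in low polysome libraries and 16.7, 18.2 and 19.4 CPM in high polysome libraries, and the difference in log2 ratio was -0.70 ± 0.18 (adjusted p = 0.012). Eprn had 51.4, 41.6 and 42.1 CPM (monosome) and 25.8, 20.7 and 20.5 CPM (high polysome) in wild-type, against 28.5, 22 and 23.3 CPM and 7.46, 5.001 and 5.42 CPM in Ddx6 KO (-1.05 ± 0.31, adjusted p = 0.025). Gm17322 (-2.46 ± 0.70) and Gm20707 (-0.90 ± 0.30), which overlaps Zfp984 on the same strand, were the other two. AU020206 and Gm31659 kept their calls in each of 14 alternatives. The call was lost without Ddx6 KO gradient 3 or wild-type gradient 2 for Cyrano, without Ddx6 KO gradient 3 or wild-type gradient 1 for 2400006E01Rik, and without Ddx6 KO gradient 2 or 3 or wild-type gradient 2 for Eprn. That of Gm17322 was lost without Ddx6 KO gradient 2 or wild-type gradient 1 or 2, that of Gm17250 without any 1 gradient other than wild-type gradient 2, and that of Gm20707 without any 1 of the 6 gradients. At equal depth the calls of Cyrano, Eprn, Gm17322, Gm17250 and Gm20707 were lost too, and without the filter on low counts those of Gm17250 and Gm20707.

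**Figure D2:**
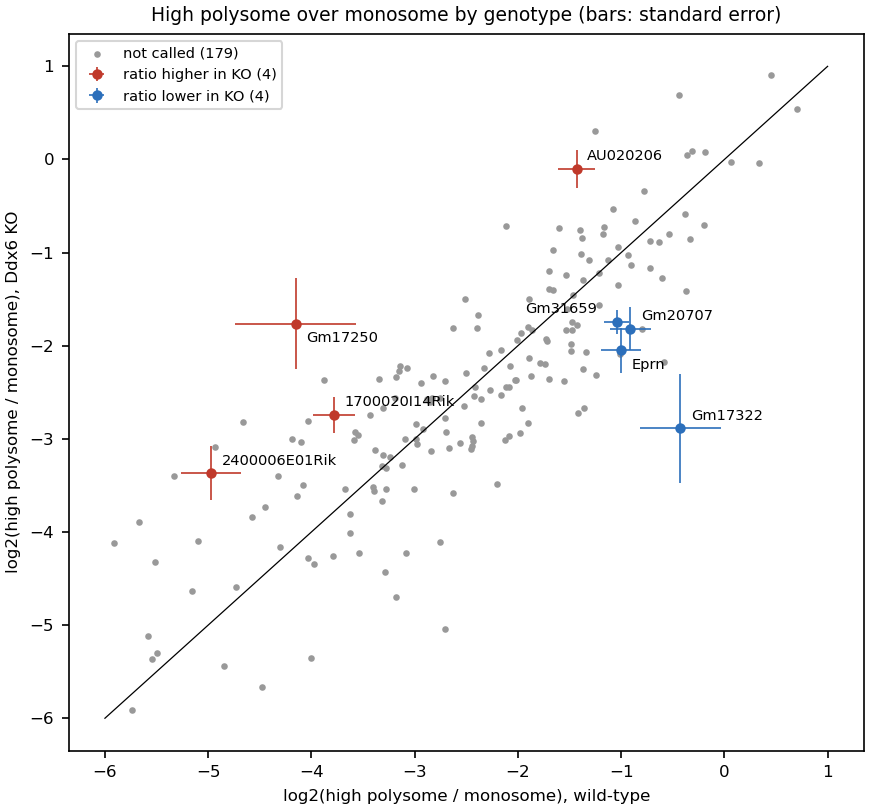
Fitted log2 ratio of high polysome to monosome for each of 187 lincRNAs in wild-type (x axis) and Ddx6 KO (y axis), with the line of equality. The 8 lincRNAs whose ratio differed are labelled and have standard errors, 4 above the line (AU020206, 1700020I14Rik, 2400006E01Rik, Gm17250) and 4 below it (Eprn, Gm20707, Gm31659, Gm17322).

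Levels within a pool were then compared between genotypes. In the monosome, 88 lincRNAs were lower in Ddx6 KO and 11 higher, beside 20.1% and 18.6% of all genes, with a median log2 change of -0.68 (all genes, -0.03). In the low polysome, 106 were lower and 7 higher, beside 24.3% and 23.4% of all genes, with a median of -0.90 (all genes, -0.03). In the high polysome, 71 were lower and 9 higher, beside 21.1% and 25.3% of all genes, with a median of -0.74 (all genes, -0.01). These comparisons shared gradients, as each gradient gave 1 library to each. In all 3 pools 54 lincRNAs were lower and 5 were higher, beside 8.41% and 9.93% of all genes, and 51 were called in none.

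The filter bears on these counts too. At least 3 CPM in 3 libraries was reached by 173 lincRNAs in wild-type and 129 in Ddx6 KO, and 55 passed through wild-type alone against 11 through Ddx6 KO alone. Of the 118 that reached it in each genotype, 46 were lower and 7 higher (monosome), 66 and 6 (low polysome), and 42 and 6 (high polysome). Of the 26 lincRNAs just downstream of coding genes, 2 were lower and 4 higher (monosome), 11 and 2 (low polysome), and 3 and 3 (high polysome). Of the 28 that overlapped another gene, 17, 20 and 14 were lower and 0 were higher. Among all genes, 20.1%, 24.3% and 21.1% were lower and 18.6%, 23.4% and 25.3% higher in these pools.

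The pluripotency-linked lincRNAs were lower in Ddx6 KO for 10 of 12 in each pool, and 0 were higher. Among all genes, 20.1% (monosome), 24.3% (low polysome) and 21.1% (high polysome) were lower. Platr5, Platr11, Platr20 and Platr27 reached 3 CPM in 3 libraries in wild-type alone, and of the 8 that did so in each genotype, a split made after seeing the data, 6 (monosome), 7 (low polysome) and 7 (high polysome) were lower. By edgeR and by DESeq2 10 of the 12 were also lower and 0 higher in each pool, and at an unadjusted p under 0.05 11 were lower and 0 higher. The median log2 change of the 12 was -1.63 (monosome), -1.81 (low polysome) and -1.71 (high polysome), and that of the 8 was -1.26, -1.44 and -1.66. Lncenc1 had 75.9, 75.9 and 71.95 CPM in Ddx6 KO monosome libraries, 68.1, 68.3 and 60.5 CPM in low polysome libraries and 45.3, 50.8 and 45.7 CPM in high polysome libraries, all below each wild-type library of the same pool. The log2 changes were -1.89 ± 0.10, -1.95 ± 0.10 and -1.69 ± 0.11 (adjusted p = 7.9e-11, 2.3e-11 and 2.2e-10 in limma).

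Platr10 went from 179, 187 and 213 CPM in wild-type to 141, 129 and 141 CPM in Ddx6 KO monosome libraries, which did not overlap (log2 -0.50 ± 0.11), and was also lower in the low (-0.95 ± 0.11) and high polysome (-0.86 ± 0.13). Platr3 went from 109, 87.8 and 93.2 CPM to 33.9, 25.99 and 30.1 CPM (log2 -1.68 ± 0.21). Eprn fell by -0.86 ± 0.20 in the monosome and -1.91 ± 0.24 in the high polysome, which is the interaction given above. Platr4, Platr5, Platr7, Platr11 and Platr27 were lower in all 3 pools, with monosome changes from -2.21 to -1.58, and the high polysome calls of Platr5, Platr11 and Platr27 were lost at equal depth, and that of Platr11 also without Ddx6 KO gradient 2 or wild-type gradient 2. Platr26 was lower in the polysome pools but was not called in the monosome (-0.38 ± 0.21), and its high polysome call was lost without the filter on low counts and without Ddx6 KO gradient 1 or wild-type gradient 1 or 3. Platr20 was lower in the monosome and not called in the polysome pools, and Platr28 was not called in any pool. In wild-type, all 12 were lower in high polysome than monosome, with a median of -2.46. Of all 187 lincRNAs 167 were lower in that comparison (median -2.36), beside 32.2% of all genes. The call of Platr28 in that comparison was lost without any 1 of the wild-type gradients.

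None of the 4 nuclear lincRNAs was called between genotypes in any pool by limma, edgeR or DESeq2. Mirg in the monosome was the 1 with an unadjusted p under 0.05 (log2 0.39 ± 0.17, adjusted p = 0.075), and it was called higher there in 5 of 13 alternatives. Malat1 had 2953, 3417 and 3400.5 CPM in Ddx6 KO monosome libraries, within the wild-type range (log2 0.03 ± 0.21). Neat1 changed by 0.03 ± 0.12 and Meg3 by -0.18 ± 0.17 in the monosome.

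Of the 14 miRNA hosts, 3 were higher and 3 lower in the monosome, beside 18.6% and 20.1% of all genes. In the low polysome 1 was higher and 3 lower (all genes, 23.4% and 24.3%). In the high polysome 2 were higher and 2 lower (all genes, 25.3% and 21.1%). Mir17hg had 25.6, 19.6 and 22.96 CPM in Ddx6 KO monosome libraries (log2 -0.42 ± 0.17, adjusted p = 0.057) and 1.22, 0.652 and 1.23 CPM in high polysome libraries, below each wild-type library (-1.56 ± 0.39, adjusted p = 0.0024). 6720427I07Rik was lower in the monosome (-0.45 ± 0.14) and not called in the polysome pools.

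Among the cytoplasmic lincRNAs, Epb41l4aos was lower in all 3 pools, with 107, 87.4 and 76.6 CPM in Ddx6 KO monosome libraries (log2 -1.60 ± 0.16). Cyrano was lower in the monosome (-0.77 ± 0.16) and low polysome (-0.62 ± 0.18), and its high polysome change was 0.27 ± 0.23 (adjusted p = 0.34). Norad was not called in any pool. The 2 lincRNAs linked to p53, Trp53cor1 (lincRNA-p21) and Pvt1, were lower in all 3 pools. So were 54 of all 187 lincRNAs and 8.41% of all genes. Trp53cor1 went from 6.37, 8.13 and 8.702 CPM to 2.93, 2.05 and 2.44 CPM in the monosome (log2 -1.68 ± 0.31), without overlap, and Pvt1 from 13.9, 10.2 and 14.5 CPM to 8.42, 6.04 and 8.72 CPM (-0.74 ± 0.25). The monosome call of Pvt1 was lost at equal depth, without the filter on low counts, and without Ddx6 KO gradient 2 or wild-type gradient 1 or 3, and its high polysome call at equal depth and without Ddx6 KO gradient 3. The high polysome call of Trp53cor1 was lost at equal depth, without the filter on low counts, with only the groups compared, and without Ddx6 KO gradient 2 or wild-type gradient 1 or 3.

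**Figure D3:**
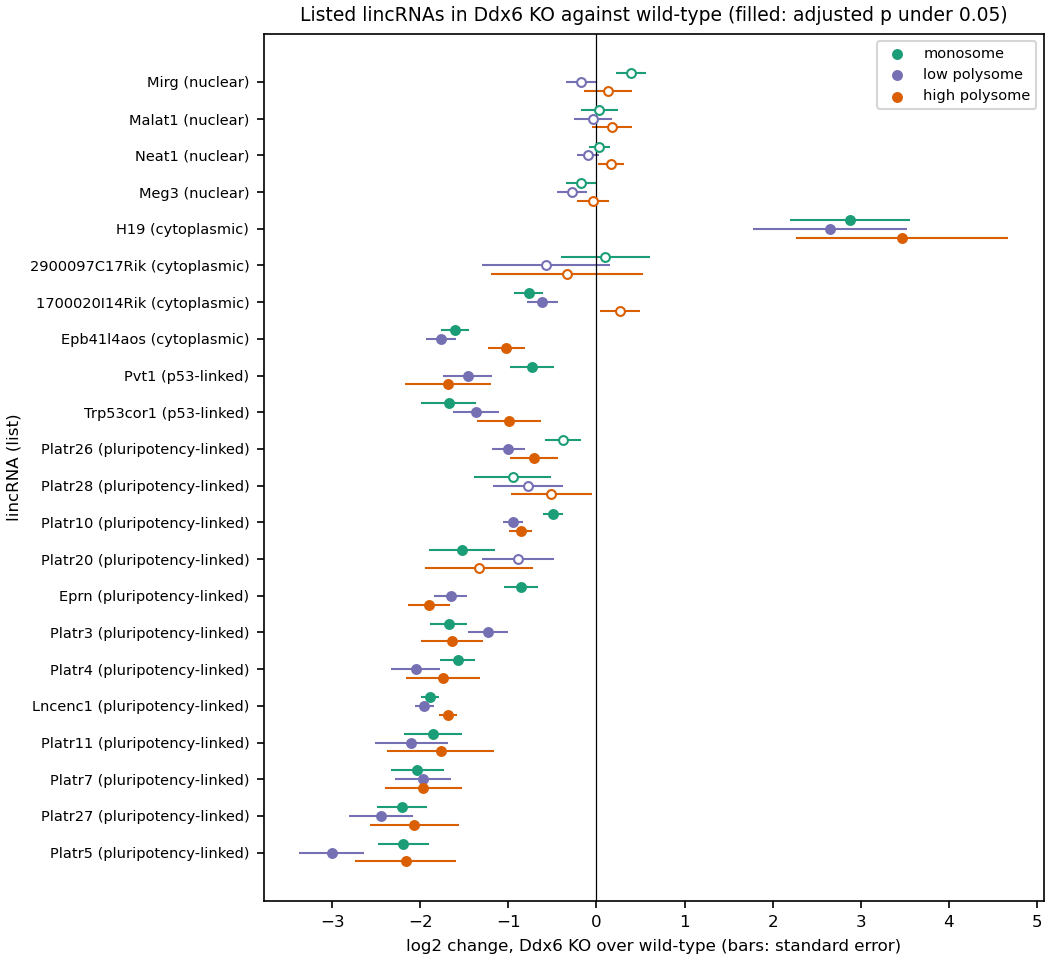
Log2 change in Ddx6 KO over wild-type (x axis) of the nuclear, cytoplasmic, p53-linked and pluripotency-linked lincRNAs (rows), in 3 pools given by colour, with standard errors as bars and filled points where the adjusted p was under 0.05. The 4 nuclear lincRNAs have open points near 0, H19 has filled points above 0, and 10 of 12 pluripotency-linked lincRNAs have filled points below 0 in each pool.

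The 6 lincRNAs with the largest mean fall over the 3 pools reached 3 CPM in 0 of the 9 Ddx6 KO libraries, so they passed the filter through wild-type alone. Gm15290 had counts in 2 Ddx6 KO libraries and the other five in 7 or 8. Gm15290, which overlaps Gm49496 on the same strand, had 245 counts over the wild-type libraries and 6 over the Ddx6 KO libraries. In the monosome it had 55 counts in wild-type and 0 in Ddx6 KO, which was at least 35.9-fold lower with 3 counts over the group as the floor. Gm33222 had 297 and 14 counts, Gm38509 210 and 14, 1110019B22Rik 588 and 59, 9130204K15Rik 242 and 24, and Gm40977, a pseudogene in RefSeq, 177 and 19. 1110019B22Rik had 12.7, 16.96 and 10.2 CPM in wild-type and 1.53, 0.967 and 1.28 CPM in Ddx6 KO monosome libraries, and its highest Ddx6 KO level was the highest of the 6.

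The 5 lincRNAs that were higher in all 3 pools were Gm10522, H19, 4933427D06Rik, Gm46332 and Lockd. Lockd, which lies 3579 nt downstream of Cdkn1b (a cell cycle inhibitor), had 86.8, 87.3 and 78.5 CPM in wild-type and 317, 237 and 233 CPM in Ddx6 KO monosome libraries (log2 1.63 ± 0.14, adjusted p = 4.0e-08). It rose by 0.83 ± 0.14 in the low and 1.16 ± 0.16 in the high polysome. Gm10522 went from 7.96, 3.72 and 3.52 CPM to 52.4, 47.1 and 43.7 CPM in the monosome, without overlap (3.41 ± 0.34). 4933427D06Rik (low polysome, 1.48 ± 0.38) and Gm46332 (monosome, 1.27 ± 0.25) rose as well. The low polysome calls of both were lost at equal depth (adjusted p = 0.080 and 0.056), as was the high polysome call of 4933427D06Rik (adjusted p = 0.068), and the high polysome call of Gm46332 was lost without the filter on low counts and without any 1 gradient other than Ddx6 KO gradient 1. 1810058I24Rik was higher in the monosome, at 710.4, 460.4 and 509 CPM (log2 0.53 ± 0.15, adjusted p = 0.0095), a call lost without Ddx6 KO gradient 1. Tmem250-ps was lower in low polysome (-0.99 ± 0.20) and high polysome (-0.61 ± 0.23) libraries, the second lost at equal depth, without the filter on low counts, and without Ddx6 KO gradient 1 or 2 or wild-type gradient 1 or 3. Of the 13 lincRNAs with a RefSeq protein, 1 was higher and 3 lower in the monosome, beside 18.6% and 20.1% of all genes. In the low polysome 1 was higher and 9 lower (all genes, 23.4% and 24.3%). In the high polysome 1 was higher and 4 lower (all genes, 25.3% and 21.1%).

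H19, an imprinted lincRNA expressed from the maternal allele, differed between the clones. Wild-type monosome libraries had 19.9, 12.1 and 15.5 CPM, and Ddx6 KO monosome libraries had 338, 65.1 and 63.6 CPM, of which the first is clone 1. Low polysome libraries of Ddx6 KO had 59.98, 22.5 and 12.8 CPM and high polysome libraries 32.1, 10.1 and 9.31 CPM, in the same order, with clone 1 the highest each time. The log2 changes over wild-type were 2.88 ± 0.68, 2.65 ± 0.88 and 3.47 ± 1.20, and without clone 1 they were 2.09 ± 0.24, 2.05 ± 0.31 and 2.91 ± 0.43, all called. Without clone 1 the Ddx6 KO side held clone 2 alone, so these SEs do not measure spread between clones. With both clones, the low and high polysome calls were lost without any 1 of the wild-type gradients. Averaged over pools, clone 1 was 1.95 higher than clone 2 on the log2 scale, and this was the 1 difference over 1 among the 42 lincRNAs with a Ddx6 KO mean of at least 10 CPM. Next were Mir124a-1hg (0.75), Gm21781 (0.56), Eprn (0.46) and Gm12688 (0.38), with a median of 0.12 over the 42, and the gradients of clone 2 differed by at most 0.59. Clone 1 had 1 gradient, so clone and gradient cannot be told apart there. Of the 3 imprinted lincRNAs, H19 was higher in each pool and Meg3 and Mirg were not called.

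**Figure D4:**
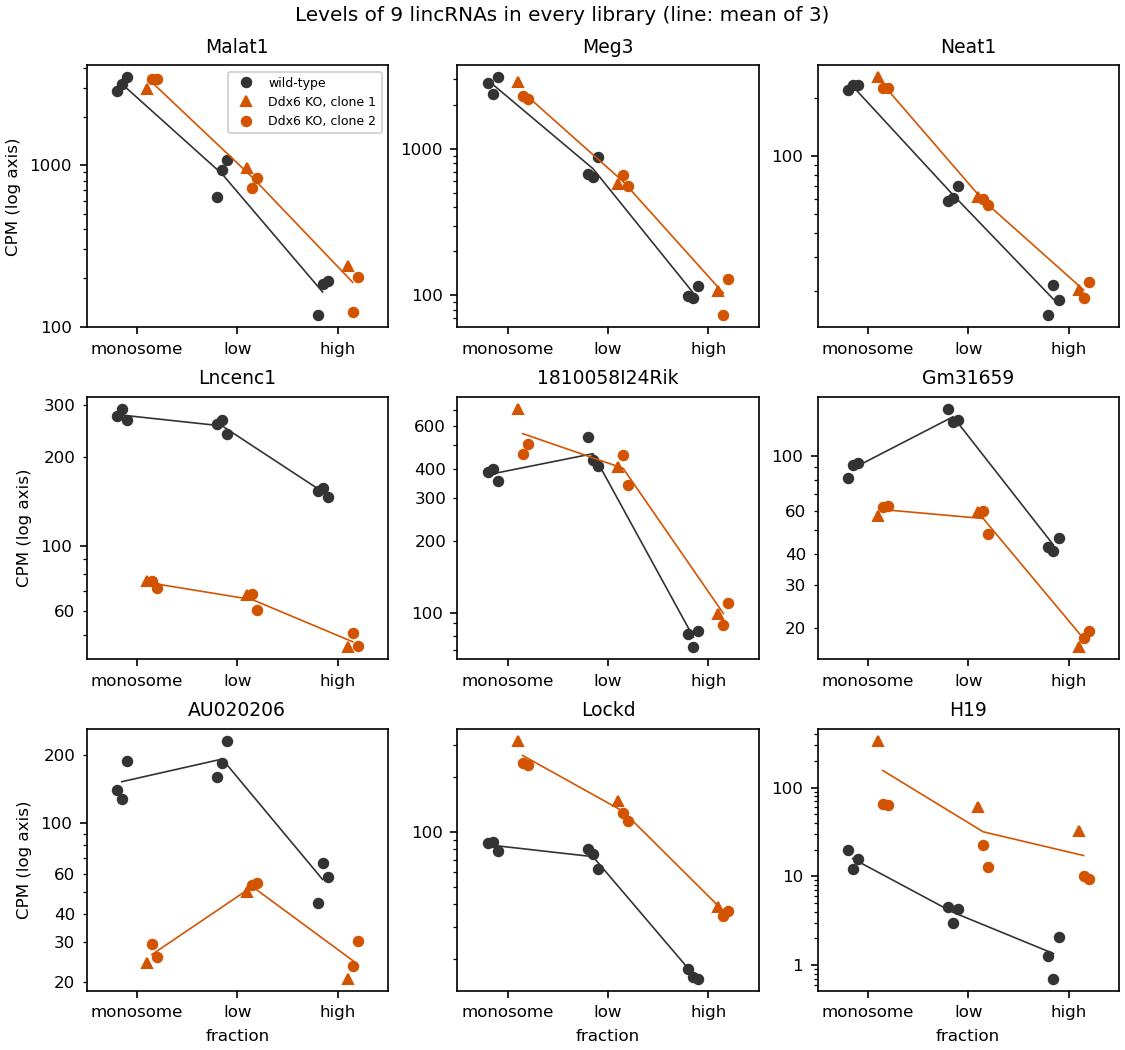
CPM on a log axis (y) of 9 lincRNAs by pool (x) in each library, with wild-type in black and Ddx6 KO in orange (clone 1 as a triangle) and lines through the means of 3 libraries. Malat1, Meg3 and Neat1 overlap between genotypes, Lncenc1, Gm31659 and AU020206 are lower and Lockd and H19 higher in Ddx6 KO, and clone 1 has the highest H19 level in each pool.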

How the data were processed

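The deposited values were raw read counts per gene for 18 libraries of 3 pools in 2 genotypes (3 gradients each). The authors trimmed QuantSeq 3′ reads (cutadapt 1.14), aligned them to mm10 (STAR 2.5.3a, unique alignments) and counted them by strand (featureCounts 1.5.3) on Gencode M14 without rRNA. Counts lie at 3′ ends and were not divided by length. Depth was 2543617 to 11474550 counts per library, and precision falls with the count. Gene types, positions and frames came from Gencode M21 (GRCm38), gene products and miRNAs from RefSeq.

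Genes with at least 3 CPM in at least 3 libraries (12705) entered limma 3.58.1 with voom weights and TMM scaling (edgeR 4.0.16) in R 4.3.3, with 6 group means fitted to all 18 libraries and Benjamini-Hochberg adjustment over all genes at 0.05. Printed CPM of lincRNAs and of Ddx6 are TMM-scaled, while the filter, the marker sums and shares of counts use library totals. Per-gradient ratios had 0.5 CPM added. Alternatives were edgeR's quasi-likelihood test, DESeq2 1.42.0, other scalings, no filter, only the groups compared, equal depth, left-out gradients, a gradient block and subsets of lincRNAs. The code was tested on simulated data.

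The lincRNAs, lists, rules and tests were chosen with earlier results of these data known. Lists were nuclear, cytoplasmic, pluripotency-linked, imprinted and p53-linked lincRNAs, hosts of miRNAs or snoRNAs, and those with a RefSeq protein. No lincRNA was annotated on an rRNA repeat. Named lincRNAs were the members of the first 5 lists, the 10 most abundant, the 8 highest and 5 lowest ratios of high polysome to monosome under the stated limits, up to 8 in each direction whose ratio differed between genotypes, the 6 largest changes in each direction called in all 3 pools, and the 5 largest clone differences. Others are said to have been singled out.

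Libraries of 1 genotype with the same replicate number were taken as pools of 1 gradient, which the titles do not state. Deviations from group means correlated between pools of the same gradient at -0.046 to 0.32 in wild-type and -0.17 to 0.46 in Ddx6 KO, and between different gradients at -0.23 to 0.077 and -0.47 to 0.53. The value of 0.53 was between the low polysome of Ddx6 KO gradient 2 and the high polysome of gradient 3. Low and high polysome within gradients 2 and 3 were at -0.10 and -0.17, so these pools of clone 2 did not bear out the pairing. Ratios by gradient, left-out gradients and the gradient block rest on it. Gradient numbers do not pair wild-type with Ddx6 KO. Replicates differed beyond counting noise (chi-square per degree of freedom 3.62 to 30.2), so none was a duplicate. The labels do not say that gradients were separate cultures, so p-values measure the spread between these samples, which may be technical.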

Additional observations from a re-analysis of the deposited data

Results flagged for a closer look

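The change of the high polysome over the monosome differed between Ddx6 KO and wild-type for 8 lincRNAs, each by the interaction term in limma. On the log2 scale the ratio was higher in Ddx6 KO for Gm17250 by 2.39, for 2400006E01Rik by 1.60, for AU020206 by 1.33 and for 1700020I14Rik (Cyrano) by 1.04. It was lower for Gm17322 (-2.46), Eprn (-1.05), Gm20707 (-0.90) and Gm31659 (-0.70). AU020206 and Gm31659 are the 2 that kept the call in each of 14 alternatives. Groups had 3 libraries each, so single libraries were not screened as outliers.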

How the results depend on the processing

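Of the counts and medians under each alternative, 272 stayed within 1.5 times the count or 1 SD of the median and 52 moved, and the causes were not tested except where an alternative holds fewer lincRNAs or reads. With the mean of at least 10 CPM (chosen after seeing the data), the counts lower were 49 for wild-type high polysome against monosome, 26 (5 higher) for low polysome against monosome, 49 for high against low polysome, 48 (0 higher) for the Ddx6 KO high polysome, 2 for the interaction, and 25, 30 and 24 (6, 4 and 3 higher) for Ddx6 KO against wild-type in monosome, low and high polysome, with median ratios of high polysome to monosome of -2.40 (wild-type) and -2.49 (Ddx6 KO) and of low polysome to monosome of -0.87 (Ddx6 KO). With 3 CPM in 3 libraries of each genotype (also added), Ddx6 KO counts were 46 lower and 7 higher (monosome), 66 lower (low) and 42 lower (high). High against low polysome gave 1 higher with DESeq2 size factors, DESeq2, edgeR, library size alone and only the groups compared. The interaction gave 7 lower with DESeq2, edgeR and library size alone, and 2 higher and 1 lower at equal depth, where Ddx6 KO against wild-type gave 4 higher (low polysome) and 47 lower (high polysome). Without lincRNAs that overlap a gene, 7 were higher in the wild-type low polysome, 2 were lower in the interaction and the wild-type median for the low polysome was -0.63. Without those just downstream of a coding gene, or with a RefSeq protein, 0 were higher in the Ddx6 KO high polysome (the call of Gm1070), and without the former 7 were higher in the Ddx6 KO monosome. Adding 2 CPM moved the medians to -1.42 (wild-type high polysome), -1.24 and -0.58 (Ddx6 KO high and low polysome), and library size alone moved the last to -0.86. The ratio of 2400006E01Rik reversed at equal depth (-0.84, adjusted p = 0.54), as did its Ddx6 KO high polysome change (-2.17, adjusted p = 0.037).

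Leaving out each gradient in turn, counts lower ranged from 155 to 167 (wild-type high against monosome, 0 to 0 higher), 59 to 81 (low against monosome, 7 without wild-type gradient 2 to 12 higher), 143 to 160 (high against low, 0 to 1 higher), 150 to 162 (Ddx6 KO high against monosome, 1 to 1 higher) and 1 without wild-type gradient 2 to 5 without Ddx6 KO gradient 1 (interaction, 2 without Ddx6 KO gradient 3 to 5 higher). For Ddx6 KO against wild-type they ranged from 75 to 81 (monosome, 9 to 12 higher), 93 to 104 (low, 5 to 7 higher) and 58 to 69 (high, 5 without wild-type gradient 2 to 10 higher). Medians ranged from -2.07 to -1.96 and -1.94 to -1.86 (high polysome, wild-type and Ddx6 KO) and from -0.56 to -0.46 and -0.82 to -0.79 (low polysome). With gradient as a replicate block, the interaction gave 5 higher and 4 lower, and comparisons of genotypes within a pool could not be fitted with it. For the 98 lincRNAs under 3 CPM in every high polysome library, few counts stand behind each ratio.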
